A study of Mus musculus with 13 samples.

Results

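The mitochondrial genome of the mouse carries 37 genes, and all 37 were found among the 42416 gene identifiers counted in interscapular brown adipose tissue (iBAT). They were taken by name, as every gene whose mouse symbol begins with mt-, and comprised 13 mRNAs, 2 rRNAs and 22 tRNAs. Earlier results of these data were known when the set was chosen. RNA was sequenced from 13 libraries, 1 mouse each as labelled, to ask what loss of the receptor tyrosine kinase AXL in adipocytes does to brown fat under an obesogenic diet. The 8 iFAXLKO libraries came from loxP-Axl-loxP Cre+ mice and the 5 WT libraries from their loxP-Axl-loxP Cre- littermates. According to the methods of the study the Cre is a tamoxifen-inducible CreERT2 driven by adiponectin (Adipoq) sequences on a transgene, so deletion is directed to adipocytes and the other cells of the depot keep Axl. Both groups carried the floxed Axl alleles, were kept at room temperature, ate a high-fat diet (HFD) and are described as female in the study. They were given tamoxifen, which the labels put at once every 3 weeks for both groups and the methods at gavages on consecutive days, repeated every 3 weeks. The age of these mice and the length of the diet are not in the labels.

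The genes on mitochondrial DNA encode the catalytic core of oxidative phosphorylation: subunits of complex I (NADH dehydrogenase, the mt-Nd genes), cytochrome b of complex III (mt-Cytb), subunits of cytochrome c oxidase or complex IV (mt-Co1, mt-Co2, mt-Co3) and of the ATP synthase or complex V (mt-Atp6, mt-Atp8). Both strands are transcribed as long precursors from which tRNAs, placed between the other genes, are cut out so that the flanking mRNAs and rRNAs are released, and most mRNAs are then polyadenylated. Brown adipocytes are packed with mitochondria, in which UCP1 lets protons flow back without ATP synthesis and so turns respiration into heat.

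Libraries held 22437277 to 32595083 counts. Values are given as CPM, the counts of a gene relative to all counts of its library scaled with edgeR's TMM factors, and a count of 3 corresponds to between 0.092 and 0.134 CPM. Axl, which the Cre should remove in adipocytes but not in other cells, was not lower in the bulk tissue. In libraries labelled iFAXLKO it stood at 33.1 ± 6.16 CPM (SD, n = 8) against 27.8 ± 3.82 CPM (SD, n = 5). It was higher than the WT mean in 6 of 8 (exact permutation test, two-sided, p = 0.113). Axl of adipocytes was not told apart from that of other cells. The study examined AXL protein by western blot in the mature fraction of inguinal fat. Bulk Axl thus did not bear out the labels, and every direction below is that of libraries labelled iFAXLKO. The brown adipocyte list was present in all libraries, with summed levels of 9316 to 13644 CPM in iFAXLKO and 11525 to 16603 CPM in WT. Of its 12 genes 10 had lower values in iFAXLKO (median log2 fold change -0.16, 2 with an unadjusted p under 0.05, 0 called). The part of these genes in the values of the mitochondrially encoded ones was not tested. All 10 fibroblast markers, such as the collagen genes Col1a1 and Col3a1, had higher values in iFAXLKO (summed 547 to 1200 against 394 to 702 CPM, 9 of 10 with unadjusted p under 0.05), as had all 8 macrophage markers (132 to 264 against 112 to 162 CPM, 7 of 8), with 0 of these 18 called. Over all genes tested, 53.6% had lower values in iFAXLKO, 7.38% had an unadjusted p under 0.05 and 0.127% were called. Skeletal muscle markers ranged from 5.02 to 6315 CPM in iFAXLKO and from 26.8 to 4594 CPM in WT. In bulk tissue, fewer cells of a type and less RNA per cell cannot be told apart.

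The 13 mRNAs fell into a set with high and a set with very low counts. The mRNA genes in a stretch of 4653 bases on the mitochondrial chromosome (bases 6390 to 11042, GRCm38) recur on the minus strand of chromosome 1. As far as they could be aligned, they recur in the same order and almost letter for letter. GENCODE M21 annotates 7 pseudogenes there, between bases 24611535 and 24616197. Most of mt-Atp8 could not be aligned, since only annotated transcripts were searched. The mitochondrial stretch holds 11 members whole, namely 6 mRNAs (mt-Co2, mt-Atp8, mt-Atp6, mt-Co3, mt-Nd3, mt-Nd4l) and 5 tRNAs, and parts of mt-Co1 and mt-Nd4. The other 24 members lie outside. Aligned with blastn, mt-Co2 and its copy Gm28661 were 100% identical over 681 bases, mt-Atp6 and Gm10925 over 678, mt-Co3 and Gm28437 over 783, mt-Nd4l and Gm10222 over 294, and the first 876 bases of mt-Nd4 were 100% identical to Gm28439. mt-Atp8 was aligned only over its last 43 bases, which overlap mt-Atp6, and is placed in the stretch by its coordinates. The first 120 bases of 2 of these mRNAs are shown, with letters that differ from the nuclear copy in capitals, of which there are 0.

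mt-Co2: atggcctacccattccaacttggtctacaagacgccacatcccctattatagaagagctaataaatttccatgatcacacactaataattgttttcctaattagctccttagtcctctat
mt-Atp6: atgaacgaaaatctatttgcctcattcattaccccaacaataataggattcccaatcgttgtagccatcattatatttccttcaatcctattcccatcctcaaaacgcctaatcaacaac

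In the aligned mRNAs and their spacing, 3 places were found at which the copies differ (the tRNA genes between them and the rest of mt-Atp8 were placed by coordinates and not aligned). In mt-Nd3 the copy Gm28438 has 1 substitution in 345 bases, T3C, counted from 1 at the 5′ end of the mRNA, which is mitochondrial base 9461. In mt-Co1 the copy Gm29216 covers bases 1063 to 1545 and also has 1 substitution, A1066T. The sum of matching mitochondrial and chromosome 1 coordinates is constant from mt-Co1 to the end of mt-Nd3 and changes by 1 base before mt-Nd4l, that is, within or beside mt-Tr, a tRNA gene at bases 9808 to 9875. The first 120 bases of mt-Nd3 are shown with the differing base in capitals.

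mt-Nd3: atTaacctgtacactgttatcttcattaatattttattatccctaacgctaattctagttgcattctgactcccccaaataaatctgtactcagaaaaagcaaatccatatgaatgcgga

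Some members not wholly inside the stretch share sequence with other nuclear transcripts as well. Windows of 50 bases found letter for letter in a nuclear transcript covered 1157 of 1545 bases of mt-Co1, including those shared with its copy on chromosome 1. They covered 179 of 1038 bases of mt-Nd2 and 443 of 1824 of mt-Nd5. Over 510 bases mt-Nd2 is 96.7% identical to Gm13339 on chromosome 2. For mt-Cytb such windows covered 0 bases. The copy of mt-Cytb on chromosome 4, Gm11410, is 92.9% identical over 1142 bases. Its first difference is G14A, and 7 of the first 120 aligned bases differ.

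mt-Cytb: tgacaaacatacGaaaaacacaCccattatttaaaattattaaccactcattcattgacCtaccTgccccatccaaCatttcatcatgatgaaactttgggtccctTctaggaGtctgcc

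Among the mRNAs and rRNAs, levels followed the borders of the copied stretch. No member inside it had more than 346 counts in any library, and the 11 together made up 0.0131 to 0.0189% of the mitochondrially encoded counts. Per kb of gene, the 6 mRNAs inside it averaged 3.42 (mt-Co2) to 27.9 (mt-Nd3) CPM, whereas the 7 other mRNAs and 2 rRNAs averaged 1424 (mt-Nd6) to 48288 (mt-Cytb) CPM per kb. mt-Cytb was thus 14108-fold above mt-Co2 per kb. The tRNA genes outside the stretch averaged from 2.74 (mt-Ts2) to 3249 (mt-Tl1) CPM per kb, so low levels were not confined to it. Within the stretch the levels per kb were uneven. The tRNA genes mt-Tg and mt-Tr averaged 89 and 70.8 CPM per kb and mt-Nd3 and mt-Nd4l 27.9 and 10.3, while mt-Co2, mt-Atp8, mt-Atp6 and mt-Co3 stayed between 3.42 and 5.46. Levels per kb of tRNA genes of 68 bases and of mRNAs are not like measures. In total counts mt-Tg (2127) lay below mt-Nd3 (3409). Whether the levels go with the places that differ was not tested. The tRNA genes mt-Ts1 (serine), mt-Td (aspartic acid) and mt-Tk (lysine) were at 0 counts in all 13 libraries, which allows up to 3 counts in each.

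mt-Td: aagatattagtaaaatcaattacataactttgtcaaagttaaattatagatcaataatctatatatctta
mt-Tk: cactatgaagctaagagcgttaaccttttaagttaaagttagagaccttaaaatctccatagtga

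How reads that match both places were handled is not given in the sources used here. Of the 7 pseudogenes, 0 are among the gene identifiers counted, so reads given to them could not be seen. The part of shared sequence in these low counts was not tested. Complex V, with mt-Atp6 and mt-Atp8, was read at 3.62 to 5.61 CPM in all, and complex IV almost wholly through mt-Co1. For the 2 genes that lie partly in the stretch, dividing by the bases outside it raised the level of mt-Nd4 from 13219 to 36286 CPM per kb and that of mt-Co1 from 37907 to 55147, a calculation added after the data were seen. For mt-Co1 the bases outside are not free of copies: 1157 of its 1545 bases lie in windows shared with nuclear transcripts, and 483 lie in the stretch.

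**Figure D1:**
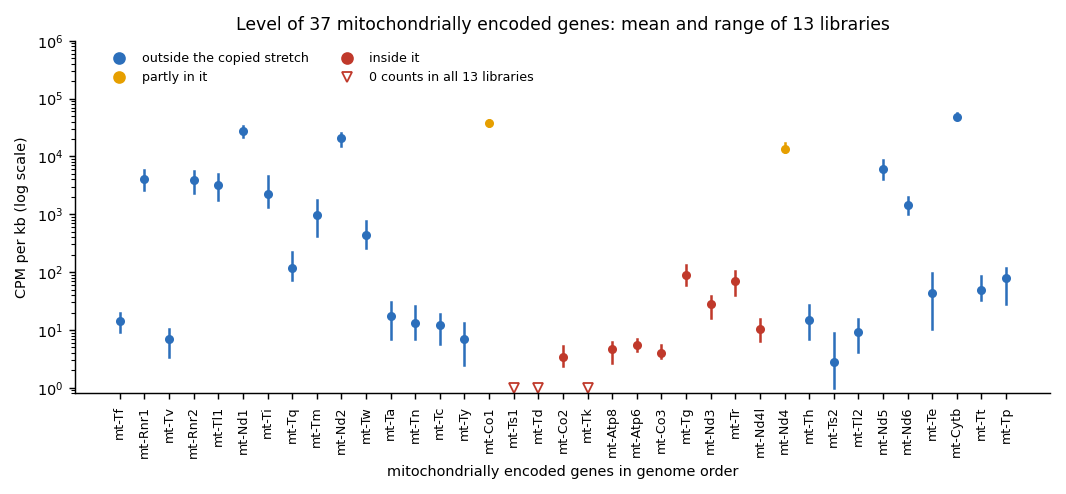
CPM per kb (log axis) of the 37 mitochondrially encoded genes in genome order, with dots at the mean and lines over the range of the 13 libraries (a line that reaches 1 includes a library at or near 0). Members inside the stretch copied on chromosome 1 have means at or below 89 CPM per kb, between mt-Co1 at 37907 and mt-Nd4 at 13219. Several tRNA genes outside it also have low means, such as mt-Ts2 at 2.74 and mt-Tp at 78.3.

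Members outside the stretch differed widely in level as well. mt-Co1, the catalytic subunit of cytochrome c oxidase, held 28.9% and mt-Cytb 27.3% of the mitochondrially encoded counts, and the 2 together 54 to 60% in every library. The complex I mRNAs mt-Nd1, mt-Nd2, mt-Nd4 and mt-Nd5 held 13.2, 10.7, 8.98 and 5.38%. mt-Nd6, the one mRNA on the minus strand, held 0.365% and lay 33.9-fold below mt-Cytb per kb. The rRNAs mt-Rnr2 and mt-Rnr1 held 3.00 and 1.88% in RNA that the labels describe as poly-A-enriched. Of the 13 mRNAs, 3 (mt-Co3, mt-Nd4 and mt-Cytb) have annotated lengths that are no multiple of 3 and end in a single left-over T, which the poly(A) tail is known to complete to a stop codon. The last 30 bases of a gene of each kind are shown with the stop codon, or what is encoded of it, in capitals.

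mt-Nd2 end: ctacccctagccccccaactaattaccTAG
mt-Cytb end: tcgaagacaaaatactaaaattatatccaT

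The share of all counts taken by the mitochondrially encoded genes did not differ between the groups beyond the spread between mice. In iFAXLKO the share was lowest at 18.3%, with a median of 20.5% and a highest value of 21.3%, and in WT it was 20.38, 20, 20.08, 21.03 and 20.76% in replicates 1 to 5. The WT values lay inside the iFAXLKO range. The means were 20.1 ± 0.996% (SD, n = 8) and 20.4 ± 0.44% (SD, n = 5), 4 of 8 iFAXLKO libraries were above the WT mean, and the difference of -0.319 percentage points did not pass the exact permutation test (two-sided, p = 0.534). Library numbers in the labels fall into a lower range, with 4 iFAXLKO and 2 WT libraries, and an upper range, with 4 and 3, whose meaning is not stated. The difference was -0.32 points within the lower and -0.231 within the upper range.

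Gene by gene, 28 members passed the filter of more than 1 CPM in at least 5 libraries (13 mRNAs, 2 rRNAs and 13 tRNAs), and 9 tRNAs did not. By edgeR's quasi-likelihood test with Benjamini-Hochberg adjustment over 13360 genes, 0 of the 28 were called at an adjusted p under 0.05, against 0.127% of all genes tested, and DESeq2 also called 0. Unadjusted p was under 0.05 for 8 of 28 members, all 8 with lower values in iFAXLKO, against 7.38% of all genes tested (3.54% on the lower side), and DESeq2 likewise gave 8. In all, 26 of 28 had a fold change below 1, against 53.6% of all genes tested, with a median log2 fold change of -0.22 beside -0.01 for all genes. The ranges of the groups overlapped for all 28, while they did not overlap for 0.434% of all genes tested. Members share precursors and libraries and so are not independent of each other. With the mean log2 level of the fibroblast markers as a covariate, added after the data were seen, 21 of 28 had a fold change below 1, the median was -0.09 and 1 had an unadjusted p under 0.05. Since all 10 fibroblast markers had higher values in iFAXLKO, this fit cannot tell group from fibroblast content. The SE of mt-Nd2 was 0.15 with the covariate and 0.10 without it. The fit thus does not give the part of fibroblast content, and the part of the macrophage markers was not tested. Leaving out WT replicate 5 left 3 members and leaving out iFAXLKO replicate 4 left 5 with an unadjusted p under 0.05.

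**Figure D2:**
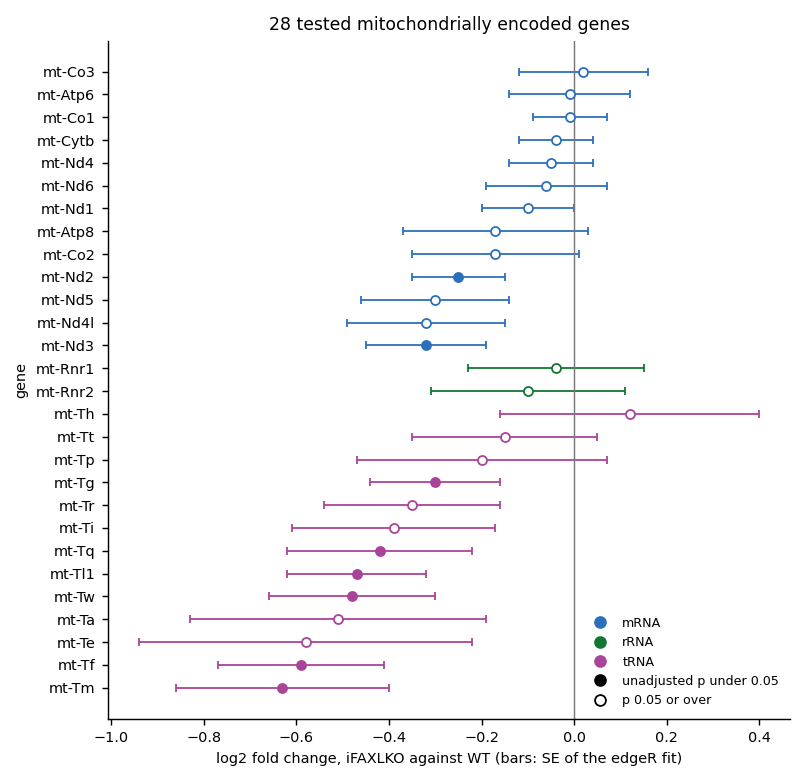
Log2 fold change of iFAXLKO against WT for the 28 tested members, with dots at the edgeR estimate, bars of 1 SE, colours for mRNAs, rRNAs and tRNAs and filled dots for unadjusted p under 0.05. The tRNAs have a median of -0.42 and the abundant mRNAs mt-Co1, mt-Cytb and mt-Nd4 lie between -0.05 and -0.01.

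Of the mRNAs, 12 of 13 had values below WT and 2 had an unadjusted p under 0.05, both of them complex I subunits. mt-Nd2 (ENSMUSG00000064345, mitochondrial bases 3914 to 4951, plus strand) was at 15544 CPM in its lowest, 20478 in the median and 23585 in its highest iFAXLKO library, and at 24462, 26208, 22586, 21856 and 25873 CPM in WT replicates 1 to 5. All 8 iFAXLKO libraries lay below the WT mean, with the ranges overlapping at the 2 lowest WT libraries. The log2 fold change was -0.25 ± 0.10 (SE; edgeR adjusted p = 0.619), and -0.07 with the fibroblast covariate. mt-Nd3, read at few counts inside the copied stretch, was at 8.84 ± 1.65 CPM (SD, n = 8) against 11.1 ± 1.51 CPM (SD, n = 5), with a log2 fold change of -0.32 ± 0.13 (SE; edgeR adjusted p = 0.621).

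The other complex I mRNAs also lay below WT without passing the test. mt-Nd5, with the lowest log2 fold change of the abundant mRNAs, was at 10053 ± 2371 against 12403 ± 2508 CPM (log2 fold change -0.30 ± 0.16 SE, edgeR adjusted p = 0.717). Its log2 fold change was -0.20 without WT replicate 1, and the difference was -0.55 on the log2 scale within the lower and -0.09 within the upper library numbers. mt-Nd1 (log2 fold change -0.10), mt-Nd6 (-0.06), mt-Nd4 (-0.05) and the low mt-Nd4l (-0.32) completed the 7 subunits. Outside complex I the abundant mRNAs were nearly level: mt-Co1 at 58398 ± 4325 against 58836 ± 3406 CPM (log2 fold change -0.01 ± 0.08 SE) and mt-Cytb at 54701 ± 3564 against 56107 ± 5718 CPM (-0.04 ± 0.08 SE). The members of complexes IV and V inside the stretch had log2 fold changes of -0.17 (mt-Co2), 0.02 (mt-Co3), -0.17 (mt-Atp8) and -0.01 (mt-Atp6) with SEs of 0.13 to 0.20, at mean levels of 4 CPM or less.

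**Figure D3:**
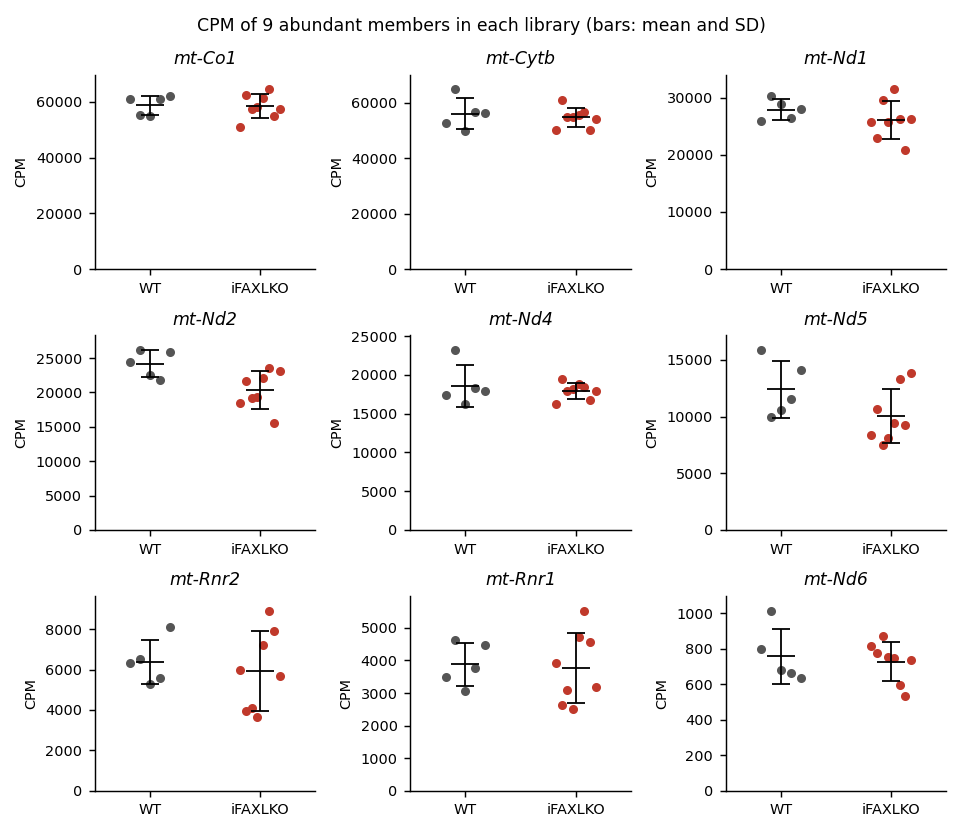
CPM of the 9 members with high counts in each WT (grey, n = 5) and iFAXLKO (red, n = 8) library, axes from 0, with bars at the mean and SD. All 8 iFAXLKO libraries lie below the WT mean for mt-Nd2, while mt-Co1 and mt-Cytb overlap throughout.

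Taken as a share of the mitochondrially encoded counts, which is free of the library scaling, mt-Nd2, the complex I mRNAs and the tRNAs had lower means in iFAXLKO. Of 21 shares examined, these 3 had an exact permutation p under 0.05 (two-sided, not adjusted for the 21, smallest possible p 0.000777). The 21 overlap: mt-Nd2 is part of the complex I sum, and the complex III sum is mt-Cytb alone. The share of mt-Nd2 was 8.6% in its lowest, 10.3% in the median and 11.4% in its highest iFAXLKO library, and 11.7, 11.8, 11.7, 10.6 and 11.9% in WT replicates 1 to 5. All iFAXLKO libraries were below the WT mean and 1 WT library, replicate 4, lay among them. The mean was 10.2 ± 0.812% (SD, n = 8) against 11.5 ± 0.527% (SD, n = 5), a difference of -1.30 points (exact permutation p = 0.00855), and -1.58 and -1.09 points within the lower and upper library numbers (exact p = 0.0667, the smallest those libraries allow, and 0.20). With any single library left out, p for mt-Nd2 stayed between 0.00253 and 0.0202.

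The 7 complex I mRNAs together made up 37.9 ± 1.66% (SD, n = 8) against 40.0 ± 1.11% (SD, n = 5) of the mitochondrially encoded counts, lower than the WT mean in 7 of 8 (exact permutation p = 0.028). mt-Nd2 alone supplied -1.30 of the -2.14 points and mt-Nd5 another -0.88. The call was lost without WT replicate 1 (exact permutation p = 0.0626), 2 or 3 (p = 0.0707 for each), and within the ranges the differences were -2.76 (p = 0.0667) and -1.71 points (p = 0.371). The share of mt-Co1 was above the WT mean in 8 of 8 iFAXLKO libraries, 29.4 ± 0.895 against 28.1 ± 1.91%, which did not pass the test (exact permutation p = 0.0963), and WT replicate 2, at 24.8%, lay far below the other WT libraries.

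**Figure D4:**
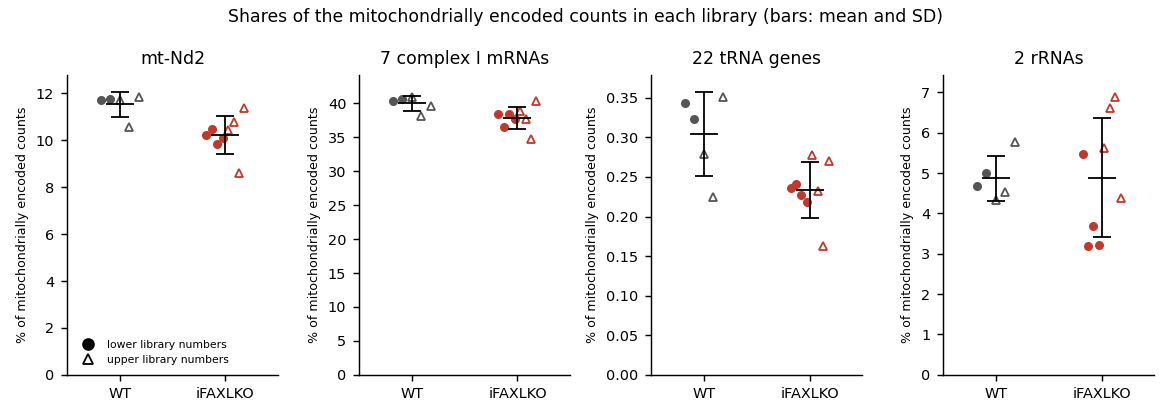
Share of the mitochondrially encoded counts (percent, axes from 0) of mt-Nd2, the 7 complex I mRNAs, the 22 tRNA genes and the 2 rRNAs in each library, grey WT (n = 5) and red iFAXLKO (n = 8), filled circles for lower and open triangles for upper library numbers, bars for mean and SD. The tRNA share is 0.163 to 0.278% in iFAXLKO and 0.224 to 0.351% in WT, and the rRNA share spreads from 3.2 to 6.89% within iFAXLKO.

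Of the 13 tested tRNAs, 9 had a lower log2 fold change than every mRNA. Mature tRNAs are short and carry no poly(A) tail, so counts at these genes in poly-A-enriched libraries can also come from precursors or from reads of a neighbouring gene, and these were not told apart here. Of all 187127 tRNA counts in the 13 libraries, 94.6% were at 5 genes that lie on either side of mt-Nd1 and mt-Nd2: mt-Tl1 (leucine, bases 2676 to 2750), mt-Ti (isoleucine, 3706 to 3774), mt-Tq (glutamine, 3772 to 3842, minus strand), mt-Tm (methionine, 3845 to 3913) and mt-Tw (tryptophan, 4950 to 5016). mt-Tl1 ends on the base before mt-Nd1 and mt-Tm on the base before mt-Nd2. mt-Ti overlaps mt-Nd1 and mt-Tw overlaps mt-Nd2 by 2 bases each. The sequences of the 3 with the highest counts on the plus strand next to the start or end of these mRNAs are shown.

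mt-Tl1: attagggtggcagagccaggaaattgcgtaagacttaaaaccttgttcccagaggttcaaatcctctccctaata
mt-Ti: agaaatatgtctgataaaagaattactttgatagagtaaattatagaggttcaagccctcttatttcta
mt-Tm: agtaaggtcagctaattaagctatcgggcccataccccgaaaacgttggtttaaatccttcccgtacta

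Of the 13 tested tRNAs, 12 had values below WT, with log2 fold changes from -0.63 to 0.12 and 6 with an unadjusted p under 0.05. mt-Tl1 (ENSMUSG00000064340) was at 134 CPM in its lowest, 208 in the median and 264 in its highest iFAXLKO library, and at 343.1, 238.4, 287.6, 231.5 and 370.1 CPM in WT replicates 1 to 5. None of the 8 reached the WT mean, and WT replicates 2 and 4 lay inside the iFAXLKO range. The log2 fold change was -0.47 ± 0.15 (SE; edgeR adjusted p = 0.49), with differences of -0.51 and -0.43 within the lower and upper library numbers and -0.04 with the fibroblast covariate. mt-Tm, the carrier of the initiating amino acid, was at 29 CPM in its lowest, 55.0 in the median and 76.4 in its highest iFAXLKO library, and at 119, 72.1, 62.9, 65.8 and 114 CPM in WT replicates 1 to 5. WT replicates 1 and 5 were thus the only libraries above 100 CPM. Its log2 fold change was -0.63 ± 0.23 (SE; edgeR adjusted p = 0.537), and -0.15 with the covariate.

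mt-Tw (log2 fold change -0.48 ± 0.18 SE, edgeR adjusted p = 0.54) and mt-Tq (-0.42 ± 0.20 SE, adjusted p = 0.674) also lay below the WT mean in 8 of 8. Without WT replicate 1 the log2 fold change of mt-Tw was -0.31. WT replicate 2 held 15.8 CPM of mt-Tq against 6.61 to 9.62 in the other WT libraries, and without it that of mt-Tq was -0.18. mt-Ti was at 138 ± 27.5 against 181 ± 82 CPM (-0.39 ± 0.22 SE, edgeR adjusted p = 0.74), with WT replicate 2 at 315 CPM above the others (-0.09 without it), and its difference was -0.77 within the lower and 0.01 within the upper library numbers. Outside the naming rule, and chosen after their values were seen, mt-Tf (phenylalanine, the first gene of the genome) had the smallest p of the members (edgeR adjusted p = 0.462) at only 0.806 ± 0.186 against 1.22 ± 0.142 CPM, and mt-Tg stood at 5.55 ± 0.865 against 6.86 ± 1.31 CPM (log2 fold change -0.30, edgeR adjusted p = 0.644; -0.19 without WT replicate 2). With the fibroblast covariate mt-Tf was the one member with an unadjusted p under 0.05, at a log2 fold change of -0.75. Summed over the 22 genes, tRNAs made up 0.233 ± 0.0351% (SD, n = 8) of the mitochondrially encoded counts in iFAXLKO and 0.304 ± 0.0528% (SD, n = 5) in WT, below the WT mean in 8 of 8 (exact permutation p = 0.0194). Without WT replicate 1 or WT replicate 5, the libraries with the highest shares, p was 0.0525, and within the ranges the differences were -0.102 (exact p = 0.0667) and -0.0489 points (p = 0.40).

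The 2 rRNAs, the structural RNAs of the mitochondrial ribosome, spread most among the abundant members. mt-Rnr1 was at 2506 CPM in its lowest, 3563 in the median and 5528 in its highest iFAXLKO library and at 3071 to 4627 CPM in WT, and mt-Rnr2 at 3648, 5837 and 8916 against 5284 to 8119 CPM. Their within-group SD on the log2 scale was 0.36 and 0.42, larger than in 84.0 and 88.6% of all genes tested, whereas that of mt-Co1 (0.10) was larger than in 6.4%. The rRNA share of mitochondrially encoded counts was 4.89 ± 1.48% (SD, n = 8) against 4.87 ± 0.563% (SD, n = 5; exact permutation p = 0.985). Within the lower library numbers it was lower in iFAXLKO by 0.951 points and within the upper ones higher by 0.994 points, and neither passed the test (exact p = 0.40 and 0.257).

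Members did not vary together as a block across mice. With group means subtracted, log2 CPM of the 36 pairs among the 9 abundant mRNAs and rRNAs had a median Pearson r of 0.19 over 13 libraries, from -0.50 (mt-Nd6 and mt-Rnr2) to 0.95 (mt-Nd4 and mt-Cytb), and 9 pairs were negative. The rRNAs followed each other (r = 0.94), as did mt-Tl1 and mt-Tm (0.93). With mt-Nd2, mt-Tm, which adjoins it, had r = 0.84 and mt-Tw, which overlaps it, 0.67. However, mt-Tl1 had 0.48 with mt-Nd1, which it adjoins, and 0.79 with mt-Nd2. Likewise mt-Ti had 0.52 with mt-Nd1, which it overlaps, and 0.8 with the more distant mt-Nd4. These values are descriptions, since the points share libraries, scaling factors and precursors.

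The nuclear genes that copy, transcribe and process mitochondrial DNA and RNA had no call in edgeR's test at an adjusted p under 0.05. Of the genes for mitochondrial DNA maintenance, 11 of 19 had lower and 8 higher values (median log2 fold change -0.03). Of these 19, 3 or 15.8% had an unadjusted p under 0.05, beside 7.38% of all genes tested. Twnk, the helicase of the replication fork, was at 36.9 ± 2.65 against 43.2 ± 3.73 CPM, below the WT mean in 8 of 8 (log2 fold change -0.23 ± 0.07 SE, edgeR adjusted p = 0.48), and Mpv17 at 62.7 ± 4.27 against 69.7 ± 4.13 CPM (adjusted p = 0.628). Among 16 transcription genes (median -0.05, 1 under 0.05) the polymerase Polrmt was at 56.2 ± 4.08 against 63.3 ± 5.42 CPM, again below the WT mean in 8 of 8 (-0.17 ± 0.07 SE, edgeR adjusted p = 0.625), and Nrf1 had the next smallest p (log2 fold change 0.13, adjusted p = 0.821). Tfam, which packages the DNA, did not differ beyond the spread between mice, at 44.2 ± 2.81 against 44.1 ± 4.50 CPM. The same held for Tfb2m at a log2 fold change of -0.10, Mterf3 at -0.08 and the coactivator Ppargc1a at -0.07.

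Genes of mitochondrial RNA processing were lower in value in 37 of 41 (median -0.10, 3 or 7.32% with an unadjusted p under 0.05), beside 53.6% lower and 7.38% under 0.05 over all genes tested, among them Mtpap, the poly(A) polymerase of mitochondria, at 26.5 ± 0.794 against 29.6 ± 2.02 CPM (log2 fold change -0.16 ± 0.06 SE, edgeR adjusted p = 0.535), and Fastkd2 (-0.18, adjusted p = 0.55). Lrpprc and Slirp, which together stabilise mitochondrial mRNAs, had log2 fold changes of -0.21 and 0.02. Of the translation genes 22 of 25 had lower values (median -0.08, 2 or 8% under 0.05), Mrrf (-0.19) and Mtrf1 (-0.24) with the smallest p.

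Nuclear subunits of the same complexes had log2 fold changes below 0, small in size, in 35 of 36 for complex I (median -0.05), 9 of 9 for complex III (-0.06), 13 of 14 for complex IV (-0.06) and 12 of 17 identifiers for complex V (-0.05), with 1 of these 76 identifiers at an unadjusted p under 0.05, beside 7.38% of all genes tested. The summed levels in iFAXLKO lay inside the WT range for complex I (13015 to 15277 against 12254 to 20594 CPM) and complex IV (10154 to 13021 against 9415 to 18129 CPM). They also did so for complex III (7463 to 8993 against 7462 to 12316 CPM). For complex V they reached below it (14575 to 18367 against 16732 to 24691 CPM). The 1 identifier under 0.05, Uqcrc2, a core subunit of complex III, was at 1184 ± 75.5 against 1363 ± 121 CPM (-0.20 ± 0.08 SE, edgeR adjusted p = 0.551), and Uqcrc1 had -0.14. The smallest p of complex I were those of Ndufs1 (-0.18) and Ndufa9 (-0.13), of complex IV Cox7a1 (-0.15) and Cox8b (-0.16), and of complex V Atp5b, the catalytic subunit (-0.21, edgeR adjusted p = 0.696), and Atp5f1 (-0.14). These medians lay within 0.1 of the median of all genes, -0.01, in every list of partners.

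**Figure D5:**
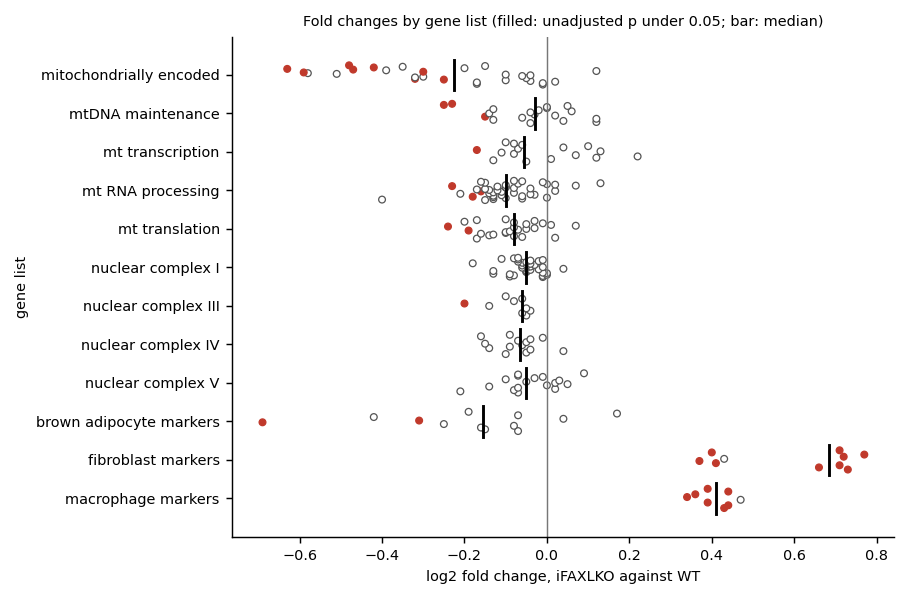
Log2 fold change of iFAXLKO against WT for each tested gene of the mitochondrially encoded set, its nuclear partner lists and 3 marker lists, with filled dots at an unadjusted p under 0.05 and a bar at the median. Partner medians lie between -0.10 and -0.03, that of the mitochondrially encoded set at -0.22, and those of fibroblast and macrophage markers at 0.69 and 0.41.

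Across the 13 mice, with group means subtracted, no relation of the mitochondrially encoded share of counts with 3 nuclear measures passed the test. Pearson's r was -0.27 with the skeletal muscle score (permutation p = 0.375, Spearman's rho -0.10, permutation p = 0.748), -0.30 with the score of the nuclear subunits (p = 0.307, rho -0.24, p = 0.437) and -0.07 with Ucp1 (p = 0.817, rho -0.20, p = 0.505), with Benjamini-Hochberg adjusted permutation p of 0.562 to 0.817 over the 3 relations. When the 2 libraries with the most extreme values of each nuclear measure were left out, r was -0.18, -0.33 and -0.61. Within the lower library numbers (n = 6) r was -0.54, -0.30 and -0.61, and within the upper ones (n = 7) -0.05, -0.02 and 0.45.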

How the data were processed

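RNA of iBAT was sequenced in 13 libraries, grouped by the genotype in the labels. The authors deposited a table of counts per gene (Ensembl identifiers) for each library, made before any normalization. The submitters' processing notes name bcl2fastq 2.20, fastp 0.20.0, STAR 2.7.4a, DESeq2 and GRCm38.p6, whereas the study's methods name Trim Galore and hisat2 2.1.0, and rRNA depletion where the labels say poly-A enrichment; the counter, strand setting and treatment of reads with several matches are not given in the sources used here. A read that can belong to several places may be dropped, split or given to one of them, which changes the counts of copied genes. Members and gene lists were chosen with earlier results of these data known. Symbols came from the identifiers (37 of 37 members matched), and positions and transcript sequences from GENCODE M21 (GRCm38).

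Counts were tested with edgeR 4.0.16 (R 4.3.3; TMM, robust quasi-likelihood fit, group only, all 13 libraries) for the 13360 genes over 1 CPM in 5 or more libraries, called at an adjusted p under 0.05 (Benjamini-Hochberg); log2 CPM used a prior count of 2. DESeq2 1.42.0, RLE factors, library sizes without the mitochondrially encoded genes, other filters, covariates, a replicate block and leaving out each library were alternatives. Shares were tested by exact permutation over all 1287 splits, two-sided, in Python 3.11.15, and relations with 100000 random orders. The edgeR fit and the exact permutation test were tested on simulated data. Copies were found with blastn 2.17.0 (word size 16, e-value limit 1e-05) against all other annotated transcripts. No 2 libraries of a group agreed within sampling noise (lowest chi-square per degree of freedom 16.6). The labels do not say whether litters or cages were shared, so p-values measure the spread between these libraries. Counts of 0 and floors cover counting error only. Genes were named by rule: all mRNAs and rRNAs, the 5 tRNAs highest in CPM, of each partner list the called genes or else the 2 with the smallest p, and Polrmt, Tfam, Tfb2m, Lrpprc, Slirp, Mterf3, Ppargc1a and Axl.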

Additional observations from a re-analysis of the deposited data

Results flagged for a closer look

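In 2 members a single WT library lay far from the other 4 by Dixon's criterion. The criterion was applied to each reported member and share in each group, 74 groups of values in all, and was met in 3. Chance meets it in about 1 in 20 groups. WT replicate 4 held mt-Nd2 at 10.6% of its mitochondrially encoded counts, the nearest other WT library being at 11.7%. WT replicate 2 held mt-Co1 at 24.8%, the nearest other being at 28.4%, and the sum of the complex IV mRNAs, which is almost wholly mt-Co1, was at the same 24.8%.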

How the results depend on the processing

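Members called stayed at 0 under every alternative run. Genes called over all genes were 17 and became 67 with DESeq2, 7 with a replicate block, 8 with the fibroblast covariate and 14 to 19 without single libraries; 1 member had an unadjusted p under 0.05 with that covariate, 3 to 10 without single libraries. The replicate numbers do not pair the mice (correlation of same-numbered deviations 0.39, 0.42, 0.19, 0.18 and -0.61); with the block 9 members had an unadjusted p under 0.05 and 23 of 28 a fold change below 1, and mt-Atp6 (0.10) and mt-Nd6 (0.09) turned positive. With the fibroblast covariate mt-Rnr1 (0.10), mt-Rnr2 (0.12), mt-Nd1 (0.07), Ppargc1a (0.28) and Axl (-0.21) changed sign, as did Tfam (-0.00) with edgeR's own filter, all uncalled. Members lower were 20 to 26 without single libraries (20 without WT replicate 2). The mitochondrially encoded share differed by -0.487 to -0.0613 points and Axl by 0.18 to 0.33 (log2) without single libraries. Signs also changed without single libraries for Tfam (-0.03 to 0.07), mt-Atp6 (-0.07 to 0.05), mt-Co1 (-0.03 to 0.01), mt-Co3 (-0.05 to 0.16), mt-Cytb (-0.06 to 0.02), mt-Nd4 (-0.08 to 0.04), mt-Nd6 (-0.11 to 0.07) and mt-Rnr1 (-0.14 to 0.04), and for the shares of mt-Nd1 (-0.469 to 0.238 points), mt-Nd6 (-0.00916 to 0.0321), mt-Rnr1 (-0.0344 to 0.144), mt-Rnr2 (-0.236 to 0.135) and both rRNAs (-0.269 to 0.259). Shares with p under 0.05 were 1 (without WT replicate 1) to 5 (without WT replicate 2), and 0 within the upper library numbers, with 4 against 3 libraries; the 4 against 2 of the lower range cannot go below 0.0667. Within the lower numbers the share differences of mt-Nd1 (0.489), mt-Nd4 (-0.107), mt-Nd6 (-0.00228), mt-Rnr1 (-0.284) and both rRNAs (-0.951) had the opposite sign, within the upper ones those of mt-Nd6 (-0.000595) and mt-Rnr2 (0.607), not counting the shares of members inside the copied stretch (at most 0.0189% of these counts in all), which are not given, and r with Ucp1 was 0.45. Per kb outside the copied stretch mt-Co1 was at 55147 and mt-Nd4 at 36286 CPM. The cause of these changes was not tested. Depth limits the members inside the copied stretch, at 346 counts or fewer in a library.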
